A study of Mus musculus with 88 samples.

Results

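The CC chemokines are small secreted proteins that attract leukocytes, and 9 genes of the family were followed in mouse hearts: the ligands Ccl2, Ccl7, Ccl8, Ccl3, Ccl4, Ccl5, Ccl6 and Ccl9 and the receptor Ccr2. They were chosen by name, with earlier results of these data known. Each was read from the probe set that the platform annotation assigned to its symbol alone. This gave 9 probe sets among 12488 on the array, or 9 genes among 8252 with such a probe set. None of the 9 was missing. The probe sets were 102736_at for Ccl2, 94761_at for Ccl7, 92459_at for Ccl8, 102424_at for Ccl3, 94146_at for Ccl4, 98406_at for Ccl5, 92849_at for Ccl6, 104388_at for Ccl9 and 93397_at for Ccr2.

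Hearts came from 88 mice, each hybridised to an Affymetrix expression array of its own. dKO mice were SR-BI-/- apoE-/-, so they lacked the high-density lipoprotein receptor encoded by Scarb1 and apolipoprotein E, and HET mice were SR-BI+/- apoE-/-, so they kept 1 working Scarb1 allele but likewise had no apolipoprotein E. At ages of 21, 31 and 43 days there were 6, 8 and 6 dKO hearts on probucol, a lipid-lowering antioxidant drug given in the diet, 10, 10 and 12 dKO hearts on chow, 3, 3 and 2 HET hearts on probucol, and 9, 10 and 9 HET hearts on chow. The design text describes dKO mice on chow as free of detectable coronary disease at the first age, with small infarcts and heart failure at the second and with extensive infarcts and severe failure at the third, when many had died, and HET mice on chow as free of detectable disease. No mice with working apolipoprotein E were in the series. The labels do not say whether mice of a group shared litters or cages. The p-values set differences against the spread between these mice, taken as independent, and shared litters or cages could make them too small.

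CC chemokines bind to receptors in the cell membrane that signal through inhibitory G proteins and direct cells along a gradient. Ccr2 is the receptor on inflammatory monocytes through which Ccl2 and Ccl7 call these cells out of bone marrow and into injured tissue, including infarcted heart muscle. Ccl3, Ccl4 and Ccl5 act on macrophages and T cells, and Ccl6 and Ccl9 are rodent chemokines made by myeloid cells that bind Ccr1.

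Values are log2 of the deposited signal, with signals under 4.22 raised to that floor (2.08 on the log2 scale), and differences are log2 differences with their standard error from a limma model of all 88 arrays. A call is an adjusted p of limma under 0.05, over 10855 probe sets in each comparison. Median signal differed between arrays (27.8 to 75.4). Over all probe sets the median chow difference, dKO minus HET, was -0.17 at 21 days, 0.20 at 31 days and 0.17 at 43 days, so differences were also taken after centring each array on its median. The arrays fell into sets of 68 and 20 at a gap in a score of genes other than CC genes. The genes were picked from the variation left after the group means. The score itself kept the group means, so the sets can also carry differences between groups. The smaller set held 6 of 10, 0 of 10 and 0 of 12 dKO hearts on chow, and 2 of 9, 6 of 10 and 3 of 9 HET hearts on chow, at the successive ages, and what separates the sets is not given in the labels. The Scarb1 probe set had group means of 5.90 to 6.92 over the 52 dKO arrays and 6.92 to 7.66 over the 36 HET arrays, and those of the 2 Apoe probe sets were 2.18 to 3.99. The summed signal of 9 heart muscle markers was 41642 to 49020 in dKO and 53077 to 59795 in HET hearts on chow at 43 days, and none of them was at the floor throughout a group.

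Low signal limited some members more than others. Ccl9 was above the 30th percentile of all values (16.4, or 4.03 on the log2 scale) on every array, Ccl6 was below it on 2 of 88 and Ccl2 on 12. Ccl7 was below it on 22 arrays, Ccr2 on 31 and Ccl8 on 33. Ccl3 was below it on 47, Ccl5 on 70 and Ccl4 on 71 arrays. The group means of Ccl4 spanned 2.75 to 4.24 and those of Ccl5 2.53 to 4.46, so both were dim in all 12 groups. At the floor itself were 10 arrays for Ccl5, 7 each for Ccl3 and Ccr2, 6 for Ccl7, 2 for Ccl4 and 1 for Ccl2, and none for Ccl6, Ccl8 and Ccl9. Raising values to a floor can make differences smaller, and those of probe sets near the floor depend on where it is set.

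The levels of the 9 genes on every array are plotted by age and group.

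**Figure D1:**
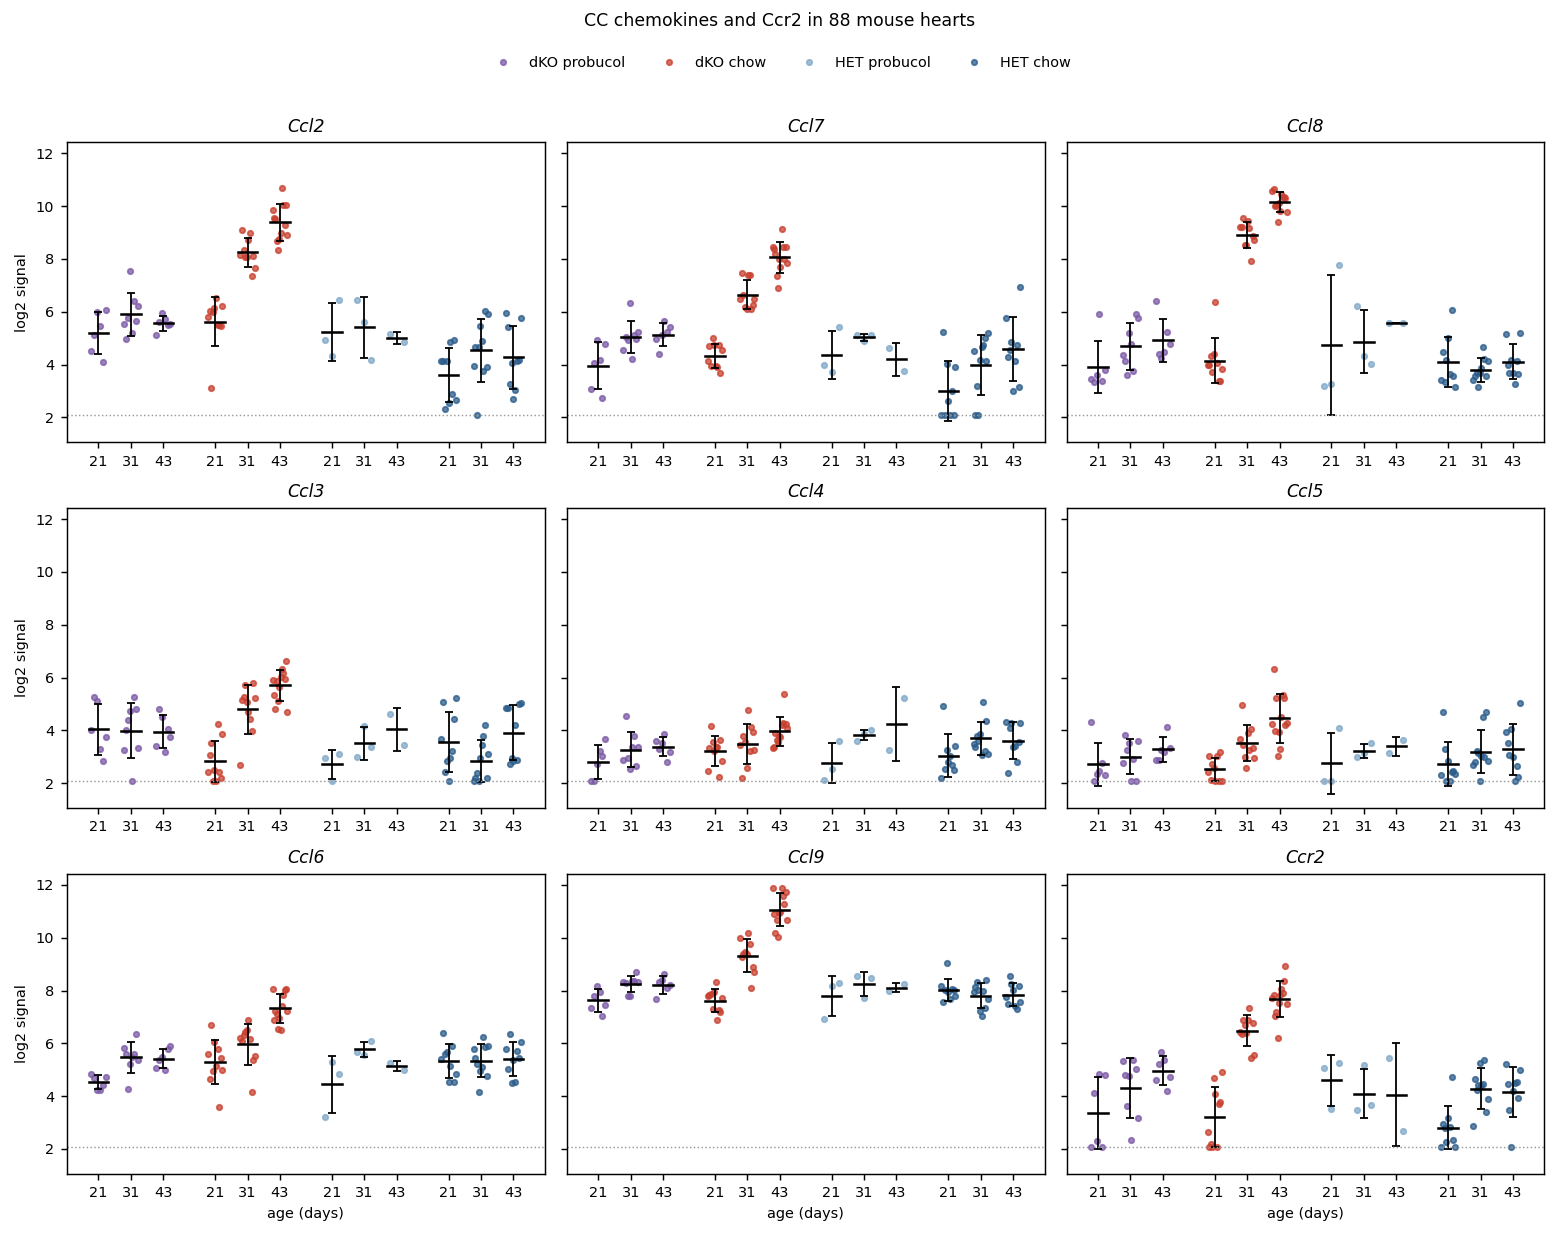
Log2 signal (y axis) of each member on each of 88 arrays against age in days (x axis), by genotype and diet; points are single hearts, black lines the group mean ± SD, and the dotted line the floor of 2.08. dKO hearts on chow at 43 days have the highest mean of 12 groups for every member except Ccl4.

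The first comparison asked how the family differed between dKO and HET hearts on chow as disease developed. At 21 days Ccl2 and Ccl7 were higher in dKO hearts, 2 of 9 members, where 0.405% of all probe sets were called higher. At 31 days 6 of 9 were higher, namely Ccl2, Ccl7, Ccl8, Ccl3, Ccl9 and Ccr2, against 14.2% of probe sets. At 43 days Ccl5 and Ccl6 were called as well and 8 of 9 were higher, against 25.5% of probe sets. No member was lower at any age, and Ccl4 was not called. The members' median difference was 0.05, 1.96 and 3.22 at the successive ages. After median centring the counts were again 2, 6 and 8, against 1.95%, 6.11% and 14.1% of all probe sets called higher. In whole-heart RNA, more cells of a type and more RNA per cell cannot be told apart.

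Ccl2, the main ligand of Ccr2, ranged from 3.13 to 6.51 in dKO hearts on chow at 21 days, with a median of 5.90, against 2.32 to 4.92 with a median of 4.11 in HET hearts. All but 1 dKO heart, that is 9 of 10, lay above the highest HET heart, and the difference was 2.01 ± 0.40 (4.04-fold, adjusted p = 0.00116). At 31 days Ccl2 was 7.36 at the lowest, 8.12 at the median and 9.10 at the highest in dKO hearts, against 2.08, 4.67 and 6.03 in HET hearts. The groups did not overlap, and the difference was 3.72 ± 0.39 (13.2-fold, adjusted p = 1.28e-12). At 43 days the dKO values were 8.33, 9.38 and 10.69, and the HET values 2.70, 4.12 and 5.93. Again every dKO heart was above every HET heart, by 5.10 ± 0.38 on average (34.3-fold, adjusted p = 2e-20). Within the larger array set alone the 21-day difference of Ccl2 was 1.61 ± 0.50 (4 dKO and 7 HET hearts, adjusted p = 0.34) and not called, while at 31 and 43 days it was 2.68 and 4.63 and called.

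Ccl7, a second Ccr2 ligand encoded next to Ccl2, was 3.67 to 5.02 in dKO hearts on chow at 21 days with a median of 4.35, and 2.08 to 5.21 in HET hearts with a median of 2.63. The ranges overlapped and the difference was 1.32 ± 0.37 (2.5-fold, adjusted p = 0.0493). This call was lost without any 1 of 12 of the 19 hearts, namely dKO replicates 1, 2, 4, 5, 8 and 10 and HET replicates 1, 3, 5, 6, 7 and 8, with differences of 1.20 to 1.34 and adjusted p of 0.0562 to 0.103. With a floor at the 30th percentile it was 0.24 and not called. At 31 days Ccl7 was 6.09, 6.48 and 7.46 (lowest, median and highest) in dKO hearts, against 2.08, 4.35 and 5.18 in HET hearts. The groups did not overlap, with a difference of 2.67 ± 0.36 (6.36-fold, adjusted p = 1.92e-08). At 43 days it was 6.89, 8.10 and 9.14 in dKO hearts, against 3.0, 4.53 and 6.93 in HET hearts. Of the dKO hearts 11 of 12 exceeded the highest HET heart, and the difference was 3.47 ± 0.36 (11.1-fold, adjusted p = 9.95e-14).

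Ccl8, a monocyte chemoattractant of the same gene cluster whose receptor in mice includes Ccr8, showed the largest differences of the 9 at 31 and 43 days and none that was called at 21 days. At 21 days Ccl8 ranged from 3.37 to 6.36 in dKO hearts on chow, with a median of 3.97, and from 3.16 to 6.07 in HET hearts, with a median of 3.63. The groups overlapped and the difference was 0.05 ± 0.37, with a 95% interval of -0.68 to 0.78. At 31 days it was 7.92, 9.01 and 9.56 (lowest, median and highest) in dKO hearts, against 3.17, 3.68 and 4.67 in HET hearts. No values overlapped, and the difference was 5.12 ± 0.36 (34.7-fold, adjusted p = 1.42e-20). At 43 days it was 9.40, 10.21 and 10.65 in dKO hearts, against 3.26, 4.0 and 5.17 in HET hearts. The groups were more than 4 log2 units apart at their nearest values, and the difference was 6.05 ± 0.36 (66.4-fold, adjusted p = 3.35e-26). In the larger array set alone it was 4.94 at 31 days and 5.93 at 43 days, both called.

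Ccr2 itself, the monocyte receptor, was 2.08 to 4.90 in dKO hearts on chow at 21 days with a median of 3.17, against 2.08 to 4.71 with a median of 2.78 in HET hearts. These near-floor ranges overlapped, and the difference was 0.42 ± 0.42 with a 95% interval of -0.40 to 1.23. At 31 days Ccr2 was 5.45, 6.56 and 7.34 (lowest, median and highest) in dKO hearts, against 2.85, 4.41 and 5.36 in HET hearts. The groups did not overlap, and the difference was 2.18 ± 0.40 (4.54-fold, adjusted p = 3.01e-05). At 43 days Ccr2 was 6.21, 7.76 and 8.91 in dKO hearts, against 2.08, 4.48 and 5.22 in HET hearts. The groups were again apart, by 3.51 ± 0.40 (11.4-fold, adjusted p = 4.07e-12). Whether the differences of Ccr2 and its ligand Ccl2 at 21 days differ from each other was not tested.

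Ccl9, a myeloid chemokine that binds Ccr1, was bright in every group. At 21 days it was 6.88 to 8.30 in dKO hearts on chow with a median of 7.76, against 7.57 to 9.03 with a median of 8.01 in HET hearts, a difference of -0.42 ± 0.22 that was not called. At 31 days Ccl9 was 8.10, 9.38 and 10.19 (lowest, median and highest) in dKO hearts, against 7.05, 7.97 and 8.40 in HET hearts. Of the dKO hearts 9 of 10 exceeded the highest HET heart, and the difference was 1.5 ± 0.21 (2.84-fold, adjusted p = 3.57e-08). At 43 days Ccl9 was 10.02, 10.95 and 11.89 in dKO hearts, against 7.29, 7.74 and 8.54 in HET hearts. The groups did not overlap, with a difference of 3.22 ± 0.21 (9.33-fold, adjusted p = 3.27e-24).

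Ccl6, the neighbour of Ccl9 and likewise a rodent Ccr1 ligand, was called later. Its difference on chow was -0.05 ± 0.29 at 21 days and 0.62 ± 0.28 at 31 days (adjusted p = 0.128). Without dKO replicate 8 at 31 days it was 0.82 and called (adjusted p = 0.0302). At 43 days Ccl6 was 6.51, 7.23 and 8.07 (lowest, median and highest) in dKO hearts, against 4.48, 5.46 and 6.35 in HET hearts. The groups did not overlap as deposited, though they did after median centring, and the difference was 1.90 ± 0.28 (3.74-fold, adjusted p = 2.05e-08).

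Ccl6 and Ccl9 lie side by side on chromosome 11 in the RefSeq gene order of GRCm38.p6, within the run Ccl5, Ccl9, Ccl6, Ccl3 and Ccl4, while Ccl2, Ccl7 and Ccl8 belong to a second run on that chromosome (Ccl2, Ccl7, Ccl11, Ccl12, Ccl8, Ccl1). Ccr2 stands on chromosome 9 in a run of receptor genes that includes Ccr1, Ccr1l1 and Ccr3. RefSeq promoter windows of 300 bases, from 250 before to 50 after the gene start, were matched for 5 of 9 members, which were Ccl8, Ccl3, Ccl6, Ccl9 and Ccr2. Windows are shown for Ccl8, which had the largest difference, and for the neighbours Ccl9 and Ccl6, whose sequences can be set side by side. They are Ccl8 at chr11:82114935-82115234 on the plus strand, and Ccl9 at chr11:83578587-83578886 and Ccl6 at chr11:83593038-83593337 on the minus strand, in GRCm38.p6 and written 5′ to 3′ along the gene.
Ccl8: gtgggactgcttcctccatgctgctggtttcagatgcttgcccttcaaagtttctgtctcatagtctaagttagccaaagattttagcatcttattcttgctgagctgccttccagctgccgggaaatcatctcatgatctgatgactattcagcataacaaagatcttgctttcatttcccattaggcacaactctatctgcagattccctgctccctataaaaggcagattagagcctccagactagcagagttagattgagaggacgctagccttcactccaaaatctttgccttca
Ccl9: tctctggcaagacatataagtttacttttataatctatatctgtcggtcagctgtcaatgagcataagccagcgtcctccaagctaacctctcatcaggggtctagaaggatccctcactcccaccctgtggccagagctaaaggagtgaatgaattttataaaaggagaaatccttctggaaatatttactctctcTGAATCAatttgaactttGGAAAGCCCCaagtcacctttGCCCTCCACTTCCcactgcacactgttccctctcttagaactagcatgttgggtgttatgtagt
Ccl6: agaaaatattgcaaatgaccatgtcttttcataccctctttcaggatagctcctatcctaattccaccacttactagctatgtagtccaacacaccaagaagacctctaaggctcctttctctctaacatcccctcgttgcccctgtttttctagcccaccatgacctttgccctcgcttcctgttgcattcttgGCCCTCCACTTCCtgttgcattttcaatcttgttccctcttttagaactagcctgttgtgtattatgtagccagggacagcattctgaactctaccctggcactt

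In Ccl6 the capitals mark a stretch of 13 bases, GCCCTCCACTTCC, that Ccl9 also holds, at -55 to -43 in Ccl6 and at -14 to -2 in Ccl9, counted from the gene start. The longest shared stretch of the other 9 pairs among the 5 windows was 7 to 9 bases. In Ccl9 the capitals mark, from the 5′ end, an AP-1 match at -53 to -47, a kappaB match at -35 to -26 that reads on the other strand, and the shared stretch. Searches on both strands covered the kappaB motif, AP-1 (TGANTCA) and an interferon-type motif, and these matches did not overlap one another. Of 32851 RefSeq promoter windows of the same length, 4.51% held the kappaB motif, 7.81% the AP-1 motif and 3.44% the interferon-type motif. Of the 5 members only Ccl9 held any of them. A match describes the letters in the window and is not a measured site.

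Ccl3, Ccl4 and Ccl5, ligands that attract macrophages and T cells, had the 3 smallest differences of the members at 43 days. Ccl3 was not called at 21 days (-0.72 ± 0.40). At 31 days it was 2.70, 5.10 and 5.80 (lowest, median and highest) in dKO hearts on chow, against 2.08, 2.66 and 4.21 in HET hearts. The groups overlapped, with 8 of 10 dKO hearts above the highest HET heart, and the difference was 1.96 ± 0.39 (3.88-fold, adjusted p = 9.87e-05). At 43 days Ccl3 was 4.69, 5.88 and 6.61 in dKO hearts, against 2.73, 4.19 and 5.04 in HET hearts, a difference of 1.78 ± 0.38 (3.44-fold, adjusted p = 7.86e-05). In the larger array set alone Ccl3 was 1.37 ± 0.50 higher at 31 days (10 dKO and 4 HET hearts, adjusted p = 0.13), which was not called, and 1.24 higher at 43 days, which was.

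Ccl5, made by T cells and natural killer cells among others, had differences of -0.19 ± 0.35 at 21 days and 0.32 ± 0.34 at 31 days, neither called. At 43 days it was 3.02, 4.26 and 6.31 (lowest, median and highest) in dKO hearts on chow, against 2.08, 3.06 and 5.04 in HET hearts. Only 4 of 12 dKO hearts were above the highest HET heart, and the difference was 1.18 ± 0.33 (2.26-fold, adjusted p = 0.00319), or 0.83 after median centring (adjusted p = 0.038). Ccl4, made by activated macrophages and T cells, was 3.34, 3.84 and 5.39 in dKO hearts at 43 days, against 2.40, 3.54 and 4.33 in HET hearts. Its differences of 0.18 ± 0.31, -0.21 ± 0.30 and 0.35 ± 0.29 at the successive ages were not called. At 43 days the 95% interval was -0.22 to 0.93.

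The genotype differences are plotted by age.

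**Figure D2:**
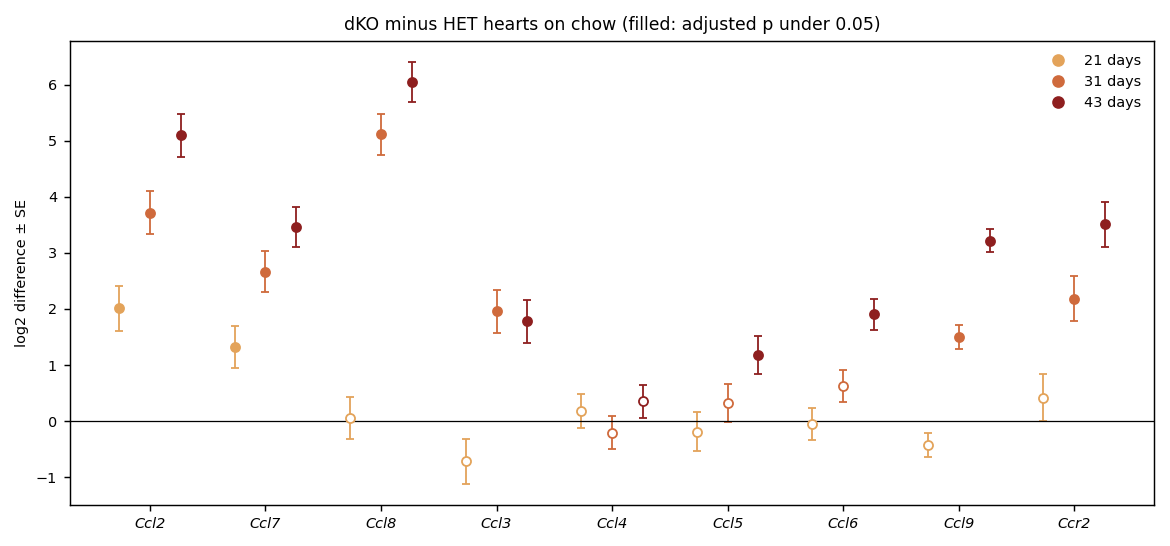
Log2 difference in signal, dKO minus HET hearts on chow (y axis), for each member (x axis) at 21, 31 and 43 days, with bars for the standard error and filled points for an adjusted p under 0.05. Ccl8 reaches 6.05 at 43 days after 0.05 at 21 days, and Ccl4 stays between -0.21 and 0.35.

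Whether the genotype difference itself changed with age was tested directly. Between 21 and 31 days it grew for 5 of 9 members, against 13% of all probe sets. Ccl8 had the largest growth, 5.07 ± 0.52 (adjusted p = 2.06e-11), followed by Ccl3 with 2.68 ± 0.56 (adjusted p = 0.000719) and Ccl9 with 1.92 ± 0.30 (adjusted p = 8.8e-06). Ccl2 grew by 1.71 ± 0.56 (adjusted p = 0.0306) and Ccr2 by 1.77 ± 0.58 (adjusted p = 0.0319), and both calls rested on single hearts. The Ccl2 call was lost without dKO replicate 3 or HET replicates 6 or 8 at 21 days or HET replicate 3 at 31 days (1.43 to 1.55). The Ccr2 call was lost without dKO replicates 2 or 4 or HET replicate 7 at 21 days, or dKO replicate 7 or HET replicates 1 or 9 at 31 days (1.53 to 1.67). Ccl7, at 1.35 ± 0.52 (adjusted p = 0.0708), was not called, but was without HET replicates 1 or 3 at 21 days or 8 or 10 at 31 days (1.46 to 1.48). After median centring Ccl2 had 1.17 and Ccr2 1.23, not called, and with the array set as a block only Ccl8 and Ccl9 were called, while Ccl3 had 1.91 (adjusted p = 0.0764).

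Between 31 and 43 days the genotype difference grew for Ccl9, by 1.72 ± 0.29 (adjusted p = 1.95e-05), and Ccl6, by 1.28 ± 0.40 (adjusted p = 0.0356), which is 2 of 9 members against 4.01% of probe sets. The Ccl6 call was lost without any 1 of 14 of the 41 hearts (1.08 to 1.24, adjusted p of 0.0511 to 0.0892). These were dKO replicates 8, 9 and 10 and HET replicates 1, 7, 8 and 10 at 31 days, and dKO replicates 1, 9, 10 and 11 and HET replicates 2, 4 and 6 at 43 days. Ccl2 grew by 1.38 (adjusted p = 0.139), Ccr2 by 1.33 (adjusted p = 0.184) and Ccl8 by 0.94 without a call. Without HET replicate 3 at 31 days the Ccl2 value was 1.65 and called. Over the whole span, 43 against 21 days, 8 of 9 members grew, against 23.8% of probe sets, with 6.0 for Ccl8, 3.64 for Ccl9, 3.09 each for Ccl2 and Ccr2, 2.50 for Ccl3, 2.15 for Ccl7, 1.95 for Ccl6 and 1.37 for Ccl5 (adjusted p = 0.0254). The Ccl5 call was lost without HET replicate 2 at 21 days or HET replicates 6 or 8 at 43 days (1.12 to 1.24), and after median centring (0.80). In the larger array set alone Ccl3 had 1.32 and was not called (adjusted p = 0.226). Ccl4 had 0.17.

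Within dKO hearts on chow, 8 of 9 members rose between 21 and 31 days, but so did 47.9% of all probe sets, whose median difference was 0.51. Ccl8 rose by 4.77 ± 0.36 (27.4-fold), Ccr2 by 3.25 ± 0.40 (9.52-fold), Ccl2 by 2.63, Ccl7 by 2.31, Ccl3 by 1.97 and Ccl9 by 1.70. The smaller rises of Ccl5 (0.98) and Ccl6 (0.68) were 0.33 and 0.02 after median centring, and not called then. The Ccl6 call was also lost without any 1 of 12 of the 20 hearts (0.49 to 0.66), dKO replicates 2, 4, 6, 8 and 10 at 21 days and 1 to 7 at 31 days. Between 31 and 43 days 7 of 9 rose, against 11.3% of probe sets, led by Ccl9 at 1.75, Ccl7 at 1.42, Ccl6 at 1.36 and Ccl8 at 1.24. Ccr2 rose by 1.20, Ccl2 by 1.12 and Ccl5 by 0.94, and each of these calls depended on single hearts. The Ccr2 call was lost without replicates 8 or 10 at 31 days or 11 at 43 days (1.08 to 1.09), and the Ccl2 call without replicates 8 or 10 at 31 days or 8, 9 or 11 at 43 days (1.0 to 1.06). The Ccl5 call was lost without replicates 3, 4, 5, 7, 9 or 10 at 31 days or 2, 4, 9 or 10 at 43 days (0.78 to 0.94). After median centring none of the 3 was called (1.0 for Ccr2, 0.92 for Ccl2 and 0.74 for Ccl5). Ccl3 had 0.90 (adjusted p = 0.0943) and Ccl4 0.48, neither called.

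In HET hearts on chow only Ccr2 was called between 21 and 31 days, at 1.49 ± 0.42 (adjusted p = 0.0134), which is 1 of 9 members where 8.37% of probe sets were called in either direction. Leaving out HET replicate 3 at 31 days added Ccl2 (1.20), leaving out HET replicate 2 at 21 days added Ccl4 (0.89) and Ccl7, and leaving out HET replicates 2 or 4 at 31 days added Ccl7 (1.17 to 1.24). None of the 9 was called between 31 and 43 days by limma, against 0.203% of probe sets.

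The second comparison asked how probucol changed the family in dKO hearts. At 21 days no member was called, where 0.0645% of probe sets were called lower. At 31 days 5 of 9 members were lower on probucol, namely Ccl2, Ccl7, Ccl8, Ccl9 and Ccr2, against 16.2% of probe sets. At 43 days 8 of 9 were lower, all except Ccl4, against 24.4% of probe sets. No member was called higher. The members' median difference was -0.24, -1.07 and -2.70 at the successive ages, beside 0.08, -0.18 and -0.25 over all probe sets. The probucol and genotype comparisons share the dKO hearts on chow. After median centring 7.3% and 11.8% of probe sets were called lower at 31 and 43 days, and the members were the same except for Ccl5 at 43 days, which had -0.80 (adjusted p = 0.11).

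Ccl2 at 31 days was 4.97, 5.72 and 7.54 (lowest, median and highest) in dKO hearts on probucol, against 7.36, 8.12 and 9.10 in dKO hearts on chow. The ranges overlapped slightly, and the difference was -2.35 ± 0.41 (0.196-fold, adjusted p = 7.21e-06). At 43 days Ccl2 was 5.10, 5.58 and 5.95 on probucol, against 8.33, 9.38 and 10.69 on chow. The groups were apart, with a difference of -3.81 ± 0.43 (0.0713-fold, adjusted p = 6.36e-12). Ccl7 at 31 days was 4.21, 5.01 and 6.33 on probucol, against 6.09, 6.48 and 7.46 on chow, a difference of -1.60 ± 0.39 (0.331-fold, adjusted p = 0.00125). At 43 days Ccl7 was 4.39, 5.17 and 5.66 on probucol, against 6.89, 8.10 and 9.14 on chow. No values overlapped at that age, and the difference was -2.93 ± 0.41 (0.131-fold, adjusted p = 4.82e-09).

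Ccl8 was apart between the diets at both later ages. At 31 days it was 3.62, 4.56 and 5.91 (lowest, median and highest) in dKO hearts on probucol, against 7.92, 9.01 and 9.56 on chow, a difference of -4.23 ± 0.39 (0.0533-fold, adjusted p = 6.64e-15). At 43 days Ccl8 was 4.23, 4.61 and 6.42 on probucol, against 9.40, 10.21 and 10.65 on chow, a difference of -5.23 ± 0.41 (0.0266-fold, adjusted p = 2.67e-19). Ccr2 at 31 days was 2.35, 4.79 and 5.38 on probucol, against 5.45, 6.56 and 7.34 on chow, which did not overlap as deposited but did after median centring. The difference of Ccr2 was -2.17 ± 0.43 at 31 days (0.223-fold, adjusted p = 7.13e-05) and -2.70 ± 0.45 at 43 days (0.154-fold, adjusted p = 7.6e-07), when its values on probucol (4.18 to 5.68) lay below all those on chow (6.21 to 8.91).

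Ccl9 at 31 days was 7.80, 8.32 and 8.70 (lowest, median and highest) in dKO hearts on probucol, against 8.10, 9.38 and 10.19 on chow, a difference of -1.07 ± 0.22 (0.477-fold, adjusted p = 0.000164). At 43 days Ccl9 was 7.66, 8.26 and 8.62 on probucol, against 10.02, 10.95 and 11.89 on chow, with no overlap and a difference of -2.85 ± 0.23 (0.139-fold, adjusted p = 4.75e-18). Ccl6 was not called at 31 days (-0.50, adjusted p = 0.292). At 43 days it was 4.99 to 5.89 on probucol and 6.51 to 8.07 on chow, again without overlap, a difference of -1.90 ± 0.32 (0.268-fold, adjusted p = 6.88e-07).

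Ccl3 had a difference of -0.81 ± 0.41 at 31 days (adjusted p = 0.184). At 43 days it was 3.17, 3.91 and 4.82 (lowest, median and highest) in dKO hearts on probucol, against 4.69, 5.88 and 6.61 on chow, which overlapped slightly and differed by -1.75 ± 0.43 (0.297-fold, adjusted p = 0.000756). Ccl5 at 43 days was 2.86, 3.21 and 4.14 on probucol, against 3.02, 4.26 and 6.31 on chow, a difference of -1.18 ± 0.38 (0.441-fold, adjusted p = 0.0111). Ccl4, which differed by -0.58 ± 0.33 (adjusted p = 0.201), was not called. At 21 days Ccl3 had 1.21 ± 0.45 (adjusted p = 0.403) and Ccl6 -0.76 ± 0.33 (adjusted p = 0.515), neither called, and the other 7 members lay between -0.42 and 0.18.

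The differences between the diets are plotted for both genotypes.

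**Figure D3:**
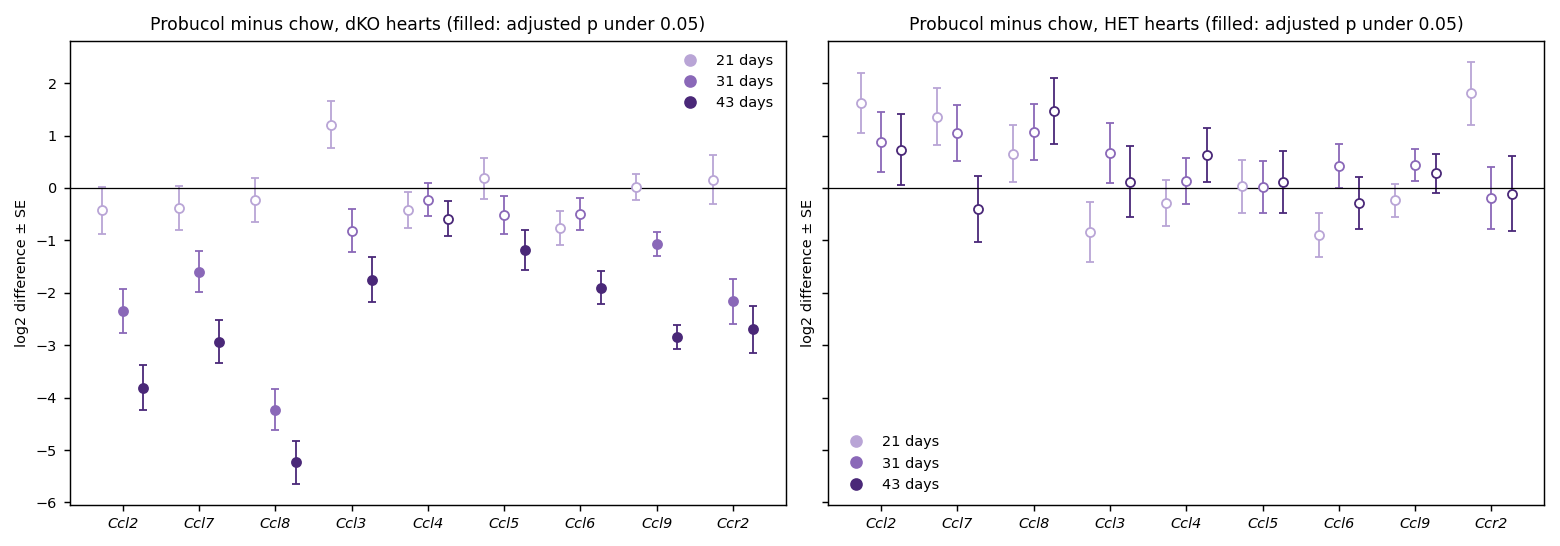
Log2 difference in signal, probucol minus chow (y axis), for each member (x axis) at 3 ages, with dKO hearts on the left and HET hearts on the right; bars are standard errors and filled points have an adjusted p under 0.05. In dKO hearts Ccl8 reaches -5.23 at 43 days, and in HET hearts, with 2 or 3 mice on probucol at each age, no point is filled.

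In HET hearts no member was called between the diets at any age by limma, where 0.175%, 0.378% and 0.0645% of probe sets were called at 21, 31 and 43 days. The largest values came at 21 days, with 1.80 ± 0.60 for Ccr2 (adjusted p = 0.324) and 1.62 ± 0.58 for Ccl2 (adjusted p = 0.405). Ccr2 was 5.07, 3.50 and 5.25 in the 3 HET hearts on probucol at that age, against 2.08 to 4.71 in HET hearts on chow. Ccl8 in the 2 HET hearts on probucol at 43 days was 5.56 and 5.57, both above the highest HET heart on chow (5.17), with a difference of 1.46 ± 0.64 that was not called (adjusted p = 0.598). With 2 or 3 mice the intervals were wide, and that of Ccl8 ran from 0.22 to 2.71.

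On probucol, dKO and HET hearts were not called different for any member by limma, where 0%, 0% and 0.0184% of probe sets were called at 21, 31 and 43 days. At 43 days Ccl8 in dKO hearts on probucol was 4.23 to 6.42, around the 5.56 and 5.57 of HET hearts on probucol, a difference of -0.65 ± 0.66. Ccl2 was 5.10 to 5.95 in dKO hearts on probucol, and 5.15 and 4.86 in the HET hearts. The difference of 0.56 ± 0.71 had a 95% interval of -0.82 to 1.95. Ccl7 had 0.94 ± 0.67 with an interval of -0.36 to 2.24. With single hearts left out the Ccl7 value ran from 0.49 to 1.39.

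Whether probucol acted differently in dKO and HET hearts was tested as the difference of the diet effects. At 21 days no member was called, where 0% of probe sets were called lower, and Ccl2 had -2.04 ± 0.73 (adjusted p = 0.326) and Ccl3 2.05 ± 0.73 (adjusted p = 0.322). At 31 days 4 of 9 were called, against 4.83% of probe sets, with -5.30 ± 0.66 for Ccl8 (adjusted p = 5.96e-09), -3.22 ± 0.70 for Ccl2 (adjusted p = 0.00183), -2.65 ± 0.66 for Ccl7 (adjusted p = 0.00767) and -1.51 ± 0.38 for Ccl9 (adjusted p = 0.00834). The Ccl9 call was lost without HET probucol replicates 1 or 3 (-1.41 to -1.35) and after median centring (-1.04). In the larger array set alone Ccl2 had -2.04 (adjusted p = 0.174) and Ccl7 -1.87 (adjusted p = 0.156), neither called, and with median centring and the array set block Ccl2 had -2.37 (adjusted p = 0.0514). Ccr2 had -1.97 ± 0.73 at this age (adjusted p = 0.0963).

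At 43 days 5 of 9 members were called in the difference of the diet effects, against 7.87% of probe sets. The values were -6.70 ± 0.75 for Ccl8 (adjusted p = 9.47e-11), -4.54 ± 0.81 for Ccl2 (adjusted p = 1.5e-05) and -3.12 ± 0.44 for Ccl9 (adjusted p = 5.11e-08). Ccr2 had -2.59 ± 0.84 (adjusted p = 0.0307) and Ccl7 -2.53 ± 0.76 (adjusted p = 0.0166), and both rested on 1 HET heart. Without HET probucol replicate 1 Ccr2 was -1.21 (adjusted p = 0.594) and Ccl7 -2.08 (adjusted p = 0.21), and the lone remaining heart is then assumed to vary like the other groups. The Ccr2 call was also lost without HET chow replicate 4 (-2.33) or dKO probucol replicate 5 (-2.44), and after median centring (-2.24, adjusted p = 0.0501). Apart from single hearts left out, it held in 6 of 12 alternative fits, with an adjusted p of limma of up to 0.0932. Without HET probucol replicate 2 it was -3.97. Ccl6 had -1.61 ± 0.59 (adjusted p = 0.0645), and was called without dKO chow replicate 5 or HET chow replicates 3 or 9 (-1.73 to -1.68).

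Ordered by mean level, dKO hearts on chow at 43 days ranked first and at 31 days second among the 12 groups for 8 of 9 members. The gaps below the first and below the second group were both larger than the larger of the neighbouring SDs for Ccl2, Ccl7, Ccl8, Ccl9 and Ccr2. For Ccl5 and Ccl6 this held for the first gap only, and for Ccl3 for neither. Ccl2, for example, had group means of 9.38 ± 0.69 (SD, n = 12) in dKO hearts on chow at 43 days and 8.26 ± 0.55 (SD, n = 10) at 31 days. Then came 5.91 ± 0.81 in dKO hearts on probucol at 31 days (SD, n = 8), and from there down no neighbours differed by more than their SD. Ccl4 was highest in HET hearts on probucol at 43 days, with values of 3.25 and 5.23, and none of its neighbours in the order was apart by more than its SD.

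Of the rest of the CC family, 6 of 14 listed ligands, 8 of 10 receptors and all 4 atypical receptors had a probe set of a single symbol. On chow, 4 of these 18 genes were called higher in dKO hearts at 31 days and 3 at 43 days, beside 14.2% and 25.5% of all probe sets, and none was lower at any age. The share at 43 days was thus below that over all probe sets. Ccl12, a mouse Ccr2 ligand, was 1.25 ± 0.32 higher at 31 days (adjusted p = 0.0032) and 1.55 ± 0.32 at 43 days (adjusted p = 3.6e-05). Ccr1, the receptor for Ccl3, Ccl5, Ccl6 and Ccl9, was 1.49 ± 0.36 higher at 31 days (adjusted p = 0.0019) and 3.05 ± 0.36 at 43 days (adjusted p = 1.7e-11). Ackr2, an atypical receptor that takes up inflammatory CC chemokines without signalling, was 1.44 ± 0.34 higher at 31 days (adjusted p = 0.0012) and 0.83 ± 0.33 at 43 days (adjusted p = 0.045). Ccrl2, a chemerin-binding receptor, was 1.08 ± 0.35 higher at 31 days (adjusted p = 0.024) and had 0.67 at 43 days (adjusted p = 0.14).

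Under probucol in dKO hearts at 43 days the difference was -2.58 for Ccr1, -2.14 for Ccl12 and -1.33 for Ackr2, all called, while Ccrl2 had -0.04. The other 14 genes, which include the eosinophil chemoattractant Ccl11, its receptor Ccr3 and the lymphoid homing receptor Ccr7, were not called on chow.

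**Figure D4:**
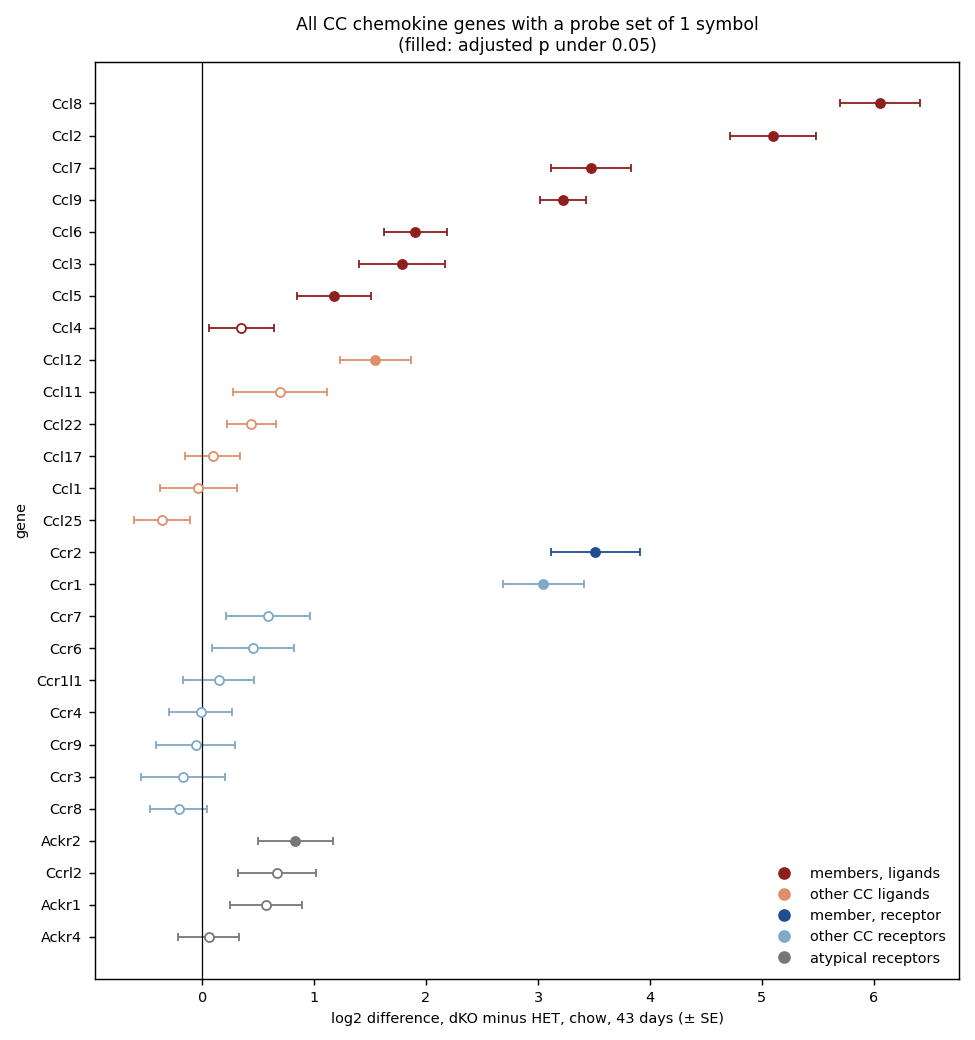
Log2 difference in signal, dKO minus HET hearts on chow at 43 days, with standard errors (x axis), for the 27 CC ligands, receptors and atypical receptors measured (y axis); filled points have an adjusted p under 0.05. The called genes run from Ackr2 at 0.83 to Ccl8 at 6.05.

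Markers of monocytes and macrophages, a list chosen like the others with earlier results of these data known, moved with the members. Of 23 measured, 5, 18 and 22 were higher and none lower in dKO hearts on chow at 21, 31 and 43 days (median differences 0.32, 1.35 and 2.19). Of all probe sets 0.405%, 14.2% and 25.5% were called higher there. Under probucol in dKO hearts 20 and 21 of the markers were lower at 31 and 43 days, beside 16.2% and 24.4% of all probe sets. On chow their summed signal was 3053 to 4757 in dKO and 2569.6 to 4375 in HET hearts at 21 days, and 8319 to 16632 in dKO and 3255 to 5709 in HET hearts at 31 days. The sum at 43 days was 14689 to 31179 in dKO and 2849.8 to 6239 in HET hearts. The groups thus overlapped at 21 days and were apart at 31 and 43 days, and in dKO hearts on probucol the sum was 3594 to 4527 at 43 days. None of these markers was at the floor throughout a group. Mpeg1, a pore-forming protein of macrophages, was higher by 1.1, 2.33 and 3.85 at the successive ages, and Tyrobp, a myeloid adaptor, by 0.72, 1.94 and 3.08, each called at all 3. Ctss, a lysosomal protease, had 4.40 and Lyz2, lysozyme, 3.01 at 43 days. The part of these markers in the members' differences was not tested.

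Markers of other leukocytes were counted in the same way, beside 0.405%, 14.2% and 25.5% of all probe sets called higher on chow at the successive ages. Of 14 T and natural killer cell markers 0, 1 and 0 were higher and 0, 0 and 1 lower on chow at the successive ages, and Zap70, a T cell kinase, was the lower one at 43 days (-0.59, adjusted p = 0.046). Their summed signal was 229 to 471 in dKO and 167 to 940 in HET hearts on chow at 43 days, which overlapped. In these groups no T or natural killer marker was at the floor throughout. Of 12 neutrophil markers 0, 4 and 6 were higher, among them S100a8 at 3.43 and S100a9 at 4.12 at 43 days, when their sum was 711 to 2316 in dKO and 276 to 1157 in HET hearts. Of 7 B cell markers 1 was higher at 43 days (Cd22, 1.5) and 1 lower (Cd79a, -0.94), and of 10 mast cell and eosinophil markers 1 was higher (Kit, 1.37) and 1 lower (Cpa3, -1.14).

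Among the tissue cells, 8 of 10 fibroblast genes were higher on chow at 43 days, where 25.5% of all probe sets were, including the collagens Col1a1 (2.49) and Col3a1 (2.63) and the matrix protein Postn (3.32), and 3 of 7 endothelial genes, including Vwf (0.94), the clotting factor carrier. Of 9 heart muscle genes 7 were lower, where 7.67% of all probe sets were, such as Tnni3 (-0.56), Myh6 (-0.56) and Myl3 (-0.50), parts of the contractile apparatus. Under probucol in dKO hearts at 43 days 7 fibroblast and 4 endothelial genes were lower, where 24.4% of all probe sets were. All 9 heart muscle genes were higher, where 4.68% of all probe sets were. RNA quality was read from the Gapdh control probe sets, as log2 of the 3′ over the 5′ signal, which on chow at 43 days averaged 0.05 ± 0.41 over 12 dKO hearts and -0.21 ± 0.17 over 9 HET hearts (SD). With that ratio as a covariate, 8 of 9 members were called at that age.

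Genes that act after the receptors and upstream of the ligands were counted too, beside 0.405%, 14.2% and 25.5% of all probe sets called higher on chow at 21, 31 and 43 days. Of 13 measured genes of chemokine receptor signalling 0, 4 and 11 were higher on chow at the successive ages, including the inhibitory G protein subunits Gnai3 (1.44) and Gnai2 (0.53), the exchange factor Vav1 (1.77) and the small GTPase Rac1 (0.70) at 43 days. Of 20 genes of NF-kappaB and the cytokines that induce CC ligands, 0, 11 and 13 were higher and 1, 0 and 0 lower. Il6, a cytokine, was higher by 2.16 at 31 days and 3.45 ± 0.38 at 43 days and had -3.65 under probucol in dKO hearts at 43 days. The adhesion molecule Icam1 (2.90) and the tumour necrosis factor receptors Tnfrsf1a (1.4) and Tnfrsf1b (1.70) were also higher at 43 days. The median of the signalling genes was 0.71 and that of the NF-kappaB genes 0.84 at 43 days, beside 0.17 over all probe sets.

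The genes whose levels ran most like a member's over the 88 arrays were taken outside the CC family, with Pearson's r as a description, since arrays share group and brightness. Ccl8 ran most like Ctss (r = 0.94), Mpeg1 (0.93) and C1qb (0.92), a complement subunit. After subtracting group means the same pairs had 0.59, 0.52 and 0.46, and 0.50, 0.41 and 0.31 with median centring as well. Ccl2 ran like Lilr4b (0.91), Cfp (0.91) and Mpeg1 (0.89), with 0.44, 0.45 and 0.35 within groups (0.36, 0.37 and 0.23 after centring). Ccl9 ran like C1qb (0.93), Lyz2 (0.91) and Fxyd5 (0.89), with 0.61, 0.44 and 0.48 within groups (0.70, 0.54 and 0.56 after centring). For Ccl7 the first were Apobec1 (0.89) and Lyz2 (0.89), and for Ccr2 Apobec1 (0.87) and Apbb1ip (0.86). Ccl6 reached 0.81 with Man2a1, Ccl3 0.78 with Atad2b and with Cxcl1, a neutrophil chemokine, Ccl4 0.75 with Pla2g2c and Ccl5 0.70 with Rarres2.

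Among the members, Ccl2 and Ccl7 had r = 0.88 over 88 arrays and 0.50 within groups (0.42 after median centring), and Ccl6 and Ccl9 had 0.79 and 0.42 (0.41 after centring). The relation of Ccr2 to each ligand was examined in median-centred values within dKO hearts on chow at 31 and 43 days. These hearts were all in the larger array set, and the 16 pairs had permutation p-values. None passed the Benjamini-Hochberg adjustment. By Spearman's rho the largest was Ccl2 with Ccr2 at 31 days (Pearson's r = 0.75, Spearman's rho = 0.81, n = 10, permutation p = 0.012 and 0.00704, adjusted p = 0.0642 and 0.0563). For this pair r was 0.86 without the 2 hearts farthest from the median of the ligand. Ccl9 with Ccr2 at 31 days had a like r of 0.75 but a rho of 0.58 (n = 10, permutation, adjusted p = 0.0642 and 0.228), and an r of 0.61 without the 2 farthest hearts. Ccl9 with Ccr2 at 43 days had r = 0.71 and rho = 0.75 (n = 12, permutation, adjusted p = 0.0642 and 0.0563), and 0.72 without the 2 farthest hearts.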

How the data were processed

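Per the labels' protocols, total RNA from whole hearts was extracted with Trizol and biotin-labelled for Affymetrix arrays. The authors deposited linear signal intensity values for 12488 probe sets on 88 arrays, for which the submitters' processing notes name MAS5 without a version. How arrays were scaled is not stated in these sources, and no detection calls were used. For dKO chow replicate 2 at 21 days the description disagrees on age with the other labels, and the other labels were followed.

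The platform annotation gave 10855 probe sets 1 symbol and 396 several. It names no build, so no coordinates were taken from it, and the promoter windows are RefSeq's, by symbol. Signals were raised to 4.22, the 10th percentile over all arrays, before log2 was taken. No filter on low values was used, so that every member was tested whichever group it was high in. A model with 12 group means (76 residual degrees of freedom) was fitted with limma 3.58.1 in R 4.3.3 (data.table at 1.17.8) with an intensity trend, and 22 contrasts were each adjusted by Benjamini and Hochberg at 0.05. The fit was also run on simulated data with independent noise for each probe set, without differences in brightness between arrays. That run cannot show how the fit behaves where arrays differ in brightness or values lie at the floor. Other values used Python 3.11.15, numpy 2.4.6, pandas 2.3.3, scipy 1.17.1 and matplotlib 3.10.9. The number of arrays limits the precision.

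Every member called in a comparison is named there, and members not called are named in some comparisons only. Other CC genes are named where called on chow, other lists by up to 4 genes with the smallest p on chow at 43 days (2 where none passed), and like genes by the 3 highest correlations within the brighter 60% of probe sets. The members and lists were chosen with earlier results of these data known. Many list genes are expressed in several cell types. The alternatives tried were median centring, quantile normalization, a floor at the 30th percentile or none, the upper 60% of probe sets, fits of the compared groups alone, a block for the replicate number or for the array set, each array set alone, no trend, array weights, the Gapdh ratio as a covariate and single arrays left out. Median centring together with the array set block was chosen after seeing the data.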

Additional observations from a re-analysis of the deposited data

Results flagged for a closer look

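Single hearts stood apart from their group for 8 of 72 combinations of member and group of 4 to 10 hearts, where chance gives about 1 in 20. In dKO hearts on chow at 21 days Ccl2 was lowest in replicate 3, at 3.13 against 5.47 in the next heart, and Ccl8 was highest in replicate 6, at 6.36 against 4.40. In dKO hearts on probucol at 21 days Ccl8 was highest in replicate 4, at 5.90 against 3.78, and Ccl5 in replicate 1, at 4.30 against 2.77. In HET hearts on chow at 21 days replicate 2 was highest for both Ccl4 (4.93 against 3.41) and Ccl5 (4.68 against 3.28), replicate 4 for Ccl9 (9.03 against 8.16) and replicate 7 for Ccr2 (4.71 against 3.18). All 8 were at 21 days, in values as deposited. HET chow replicate 2 at 21 days had the brightest array of its group (median signal 52.1, lowest of the group 29.9).

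Several effects differed between ages by the limma test of the difference itself. The dKO minus HET difference on chow grew between 21 and 31 days for Ccl8 (5.07), Ccl3 (2.68), Ccl9 (1.92), Ccr2 (1.77) and Ccl2 (1.71). It grew between 31 and 43 days for Ccl9 (1.72) and Ccl6 (1.28). Between 21 and 43 days it grew for Ccl8 (6.0), Ccl9 (3.64), Ccl2 (3.09), Ccr2 (3.09), Ccl3 (2.50), Ccl7 (2.15), Ccl6 (1.95) and Ccl5 (1.37).

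The probucol effect differed between dKO and HET hearts at 31 days for Ccl8 (-5.30), Ccl2 (-3.22), Ccl7 (-2.65) and Ccl9 (-1.51). At 43 days it differed for Ccl8 (-6.70), Ccl2 (-4.54), Ccl9 (-3.12), Ccr2 (-2.59) and Ccl7 (-2.53). These values rest on 2 or 3 HET hearts on probucol at each age, and the Ccr2 call at 43 days held in 6 of 12 alternative fits.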

How the results depend on the processing

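No member's called difference changed sign under any alternative run. Counts of members called, by limma, that moved by more than 1.5 times are given here. Smaller moves with single hearts left out are given too, and counts with the replicate block come further below. The cause was not tested unless given. For dKO minus HET on chow at 21 days, 2 as reported, the count was 1 with a floor at the 30th percentile, without the intensity trend, with the array set as a block, with only the groups compared and in the smaller array set alone, 0 in the larger array set alone, and 1 to 2 with single hearts left out. At 31 days it was 6 to 7 with single hearts left out. Only 5 members are in the upper 60% of probe sets, so that filter gave 5 in place of 8 on chow at 43 days, in the change between 21 and 43 days, under probucol in dKO hearts at 43 days and between 21 and 31 days in dKO hearts. For the change of the chow difference between 21 and 31 days, 5 as reported, it was 3 after median centring and with the filter, 2 with the array set block, with centring and that block, and in the larger array set, and 4 to 6 with single hearts left out. Between 31 and 43 days, 2 as reported, it was 4 with the higher floor and with array weights, 1 in the larger array set, and 1 to 3 with single hearts left out. Between 21 and 43 days it was 7 to 8 with single hearts left out. For the difference of the probucol effect it was 2 in place of 4 at 31 days with centring and the block and in the larger array set (3 to 4 with single hearts left out), and 8 in place of 5 at 43 days with the higher floor (3 to 6 with single hearts left out). Between 21 and 31 days in dKO hearts it was 5 in place of 8 with centring and the block (7 to 8 with single hearts left out). Between 31 and 43 days in dKO hearts it was 4 in place of 7 with quantile normalization, median centring, and centring and the block (4 to 7 with single hearts left out). In HET hearts between 21 and 31 days, 1 as reported, it was 0 with the higher floor, the filter and in the smaller array set, 2 with the array set block, 3 in the larger array set, and 1 to 3 with single hearts left out. The comparisons with 0 members called had 0 under all alternatives run.

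Correlations of same-numbered dKO and HET hearts on chow were -0.15 to 0.15 at 21 days, -0.20 to 0.09 at 31 days and -0.14 to 0.23 at 43 days. Whether equal replicate numbers mark paired mice cannot be told from these values. With the replicate block the count on chow at 21 days was 1 in place of 2 and the change between 31 and 43 days 1 in place of 2. Other probe sets of a member could not be compared, since each has 1. Without dKO chow replicate 2 at 21 days, whose labels disagree on its age, Ccl7 lost its call at 21 days. Ccr2 then also lost its call in the change of the chow difference between 21 and 31 days. So did Ccl6 in its rise between those ages in dKO hearts on chow. The signals of Ccl4 and Ccl5, below the 30th percentile on 71 and 70 of 88 arrays, limit what can be read from them.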
